A study of Arabidopsis thaliana with 9 samples.

Results

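The most abundant RNAs of wild-type (WT) Arabidopsis thaliana seedlings that had been held at 45 °C for 3 h are described here from 3 RNA sequencing libraries, WT replicates 1 to 3, of the 9 libraries in the series. They were chosen by genotype alone. The WT seedlings were 2 weeks old and had grown on ½ MS medium under long days. The other libraries, from SR45a-1a overexpression and sr45a mutant seedlings heated in the same way, were not used. All libraries came from heated seedlings, so no level given here measures a response to heat. Nothing in the labels tells whether the 3 replicates are separate plants, cultures or libraries of the same RNA, so each SD may be technical.

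Heat unfolds proteins, and plants answer with heat shock factors, transcription factors that bind repeated short units in promoters, the heat shock element. Their best known targets encode chaperones: small heat shock proteins hold unfolding proteins in a soluble state, and HSP70, HSP90, HSP60 and HSP101 refold or disaggregate them. In green seedlings these RNAs share the pool with those of photosynthesis, which in leaves are among the most abundant of all.

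Each library held 21833182, 21610270 and 21864604 gene counts in replicates 1 to 3, over 27218 listed genes. FPKM scales the count to gene length and library size, so levels of different genes are compared in FPKM only. Values are mean ± SD over the 3 libraries (n = 3). Some 17715 genes reached a mean of 1 FPKM, 953 reached 100 FPKM and 51 reached 1000 FPKM, while 2906 had no count in any of the 3. Chloroplast-encoded genes took 0.0390 to 0.0514% of the counts and mitochondrial genes 0.0897 to 0.160%. On log2(FPKM + 1) over the 17715 genes, Pearson's r across genes was 0.990 for replicates 1 and 2, 0.987 for 1 and 3 and 0.994 for 2 and 3, and genes are not independent points.

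Replicate 1 stood apart from the other 2 libraries by gene length. Among genes of at least 10 FPKM, the 411 genes of up to 750 bp had a median log2 ratio of −0.24 in replicate 1 over the mean of replicates 2 and 3. The 1857 genes over 2500 bp had a median of 0.21. Replicate 3 ran the other way against its own remaining pair, with medians of 0.16 and −0.17, and replicate 2 lay between them at 0.06 and −0.05. Mitochondrial genes took 0.160% of the counts in replicate 1 against 0.0897 and 0.0927% in the others. The lncRNA AT3G06355 stood at 297 FPKM there, against 84.1 and 100.9. The part of gene length in the results below was not tested. Count shares of the 10 genes of highest count, and of 3 classes mostly lower in replicate 1, are also given without replicate 1 or 3.

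**Figure D1:**
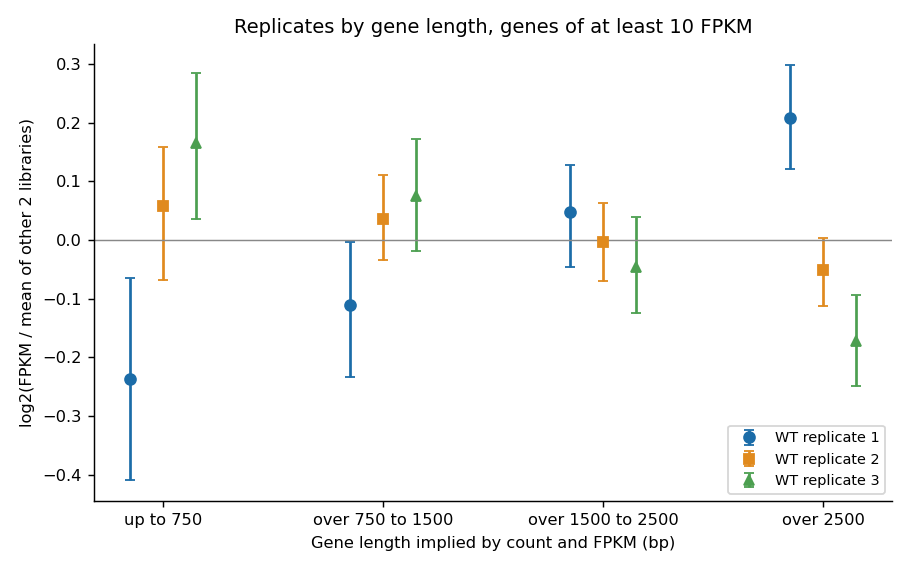
Median log2 ratio of each library's FPKM to the mean of the other 2 (y axis) in 4 bins of gene length (x axis, bp), for genes of at least 10 FPKM; bars span the quartiles over genes. Replicate 1 moves from −0.24 in the shortest bin to 0.21 in the longest, and replicate 3 from 0.16 to −0.17.

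Heat chaperones and photosynthesis filled the top of the list. HSP18.2, a cytosolic small heat shock protein gene, was the most abundant at 17642 ± 1847 FPKM, followed by ATHSP22.0, a small heat shock protein of the endoplasmic reticulum, at 11069 ± 2051 FPKM. RBCS1A, a small subunit of Rubisco, came next at 8283 ± 448 FPKM, and CAB1, a chlorophyll a/b binding protein of photosystem II antennae, after it at 6145 ± 607 FPKM. Of the 30 genes of highest mean FPKM, 17 belonged to the photosynthetic light reactions, 5 to the small heat shock proteins, 3 to the Calvin cycle and photorespiration, 2 to the water channels and 1 to lipid transfer.

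HSP18.2 (AT5G59720, chr5:24062323-24063300 on the plus strand, TAIR10.1) had 15546, 19027 and 18354 FPKM in replicates 1 to 3. ATHSP22.0 (AT4G10250, chr4:6370338-6371372, plus strand) had 8706, 12377 and 12125 FPKM. In both genes replicate 1 was the lowest, and the 3 values of HSP18.2 all exceeded those of ATHSP22.0. RBCS1A (AT1G67090, chr1:25048158-25049667, minus strand) had 7803, 8355 and 8691 FPKM, all below ATHSP22.0 but the highest only just. CAB1 (AT1G29930, chr1:10477885-10479114, plus strand) had 5775, 5816 and 6845 FPKM, again with no overlap with the gene above it.

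Below CAB1 the order was not resolved. Of the 30 steps from one gene to the next in that order, 26 had overlapping values, and besides the first 3 steps the only clear step was from LHCB5 down to RCA. PSBR, a small photosystem II subunit, had 4266, 5705 and 6621 FPKM, values that overlap those of the next 3 genes, LHCA1 at 4885 ± 346, CAB3 at 4376 ± 514 and AT2G29500 at 4331 ± 341 FPKM. RCA, Rubisco activase, a chloroplast protein known to be heat sensitive, was the steadiest of the 30, with 2731, 2708 and 2693 FPKM. GASA1, a gibberellin-regulated peptide gene at 3302 ± 364 FPKM, and TCTP, the translationally controlled tumor protein homologue at 2328 ± 161 FPKM, were the only members of the 30 in no functional class.

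**Figure D2:**
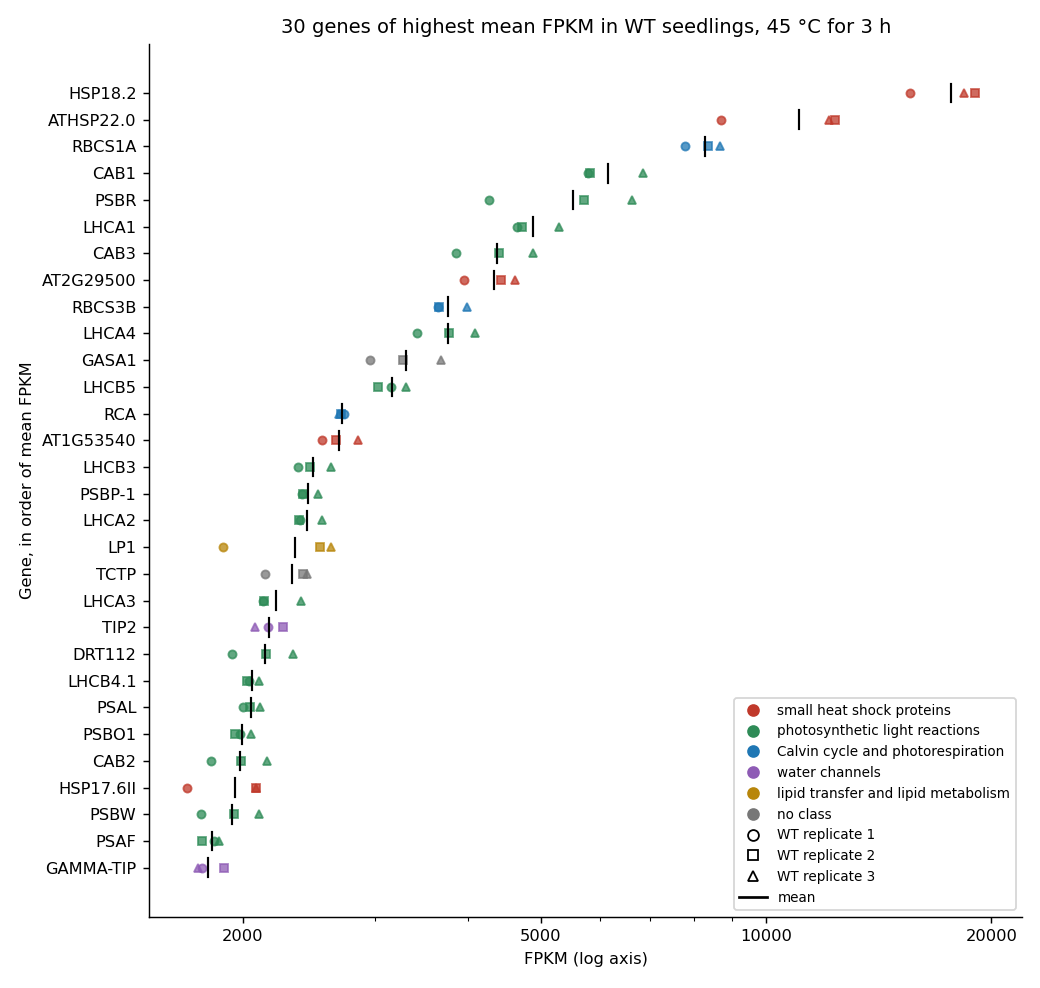
FPKM (x axis, log) of the 30 genes of highest mean FPKM (y axis, in order), coloured by functional class; the symbols are the 3 WT libraries and the black line is the mean. All values of HSP18.2, ATHSP22.0 and RBCS1A, at 17642, 11069 and 8283 FPKM on average, exceed those of the gene below. ATHSP22.0 does so only just, with 8706 against 8691 FPKM, and most of the other genes overlap.

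A few genes held much of the RNA. The 10 genes of highest count in each library, not per length, took 7.15, 8.10 and 8.44% of the counts in replicates 1 to 3. The mean was 7.90 ± 0.666%, without replicate 1 8.27% and without replicate 3 7.63%. The 100 genes of highest count took 23.9 ± 1.05% and the 1000 of highest count 51.4 ± 1.15%. Pooled over the libraries, 919 genes held 50% of the counts and 7709 genes held 90%. Of summed FPKM, which leaves gene length out, the genes of highest FPKM in each library held larger shares. These were 10.99 ± 0.839% for 10 genes, 28.8 ± 1.196% for 100 and 57.7 ± 1.49% for 1000.

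Sorted by function, the 93 genes of the photosynthetic light reactions took the largest share of all classes, 9.23 ± 0.621% of the counts and 12.3 ± 0.573% of summed FPKM. The 18 small heat shock protein genes came next by summed FPKM with 6.75 ± 0.568%, and took 4.24 ± 0.470% of the counts. The 376 ribosomal protein genes took 6.22 ± 0.476% of summed FPKM, less than the small heat shock proteins in each of the 3 libraries, and 4.02 ± 0.383% of the counts. Without replicate 1 the light reactions took 9.50% and the ribosomal proteins 4.22% of the counts. Without replicate 3 they took 8.89 and 3.85%. The 45 genes of the Calvin cycle and photorespiration took 4.21 ± 0.0904% and the 205 large chaperones and co-chaperones 2.71 ± 0.113% of summed FPKM. By counts the large chaperones held 3.69 ± 0.117%, nearer to the small ones. The classes were set from symbols and descriptions, and the 22206 genes in no class held 53.4 ± 1.19% of the counts.

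Of the 18 small heat shock protein genes 14 reached 100 FPKM and 6 reached 1000 FPKM, against 953 and 51 of all 27218 genes. Their median was 515 FPKM, that of all listed genes 3.99 FPKM. The photosynthetic light reactions had 57 of 93 genes at or above 100 FPKM, with a median of 339 FPKM. Ribosomal proteins were high as a class without a leading gene: 159 of 376 reached 100 FPKM and none reached 1000, with SSR16 on top at 876 ± 234 FPKM. In the small heat shock class the leading 3 genes held 77.1% of the summed FPKM, against 21.3% in the light reactions and 4.84% in the ribosomal proteins. The third, AT2G29500, had 4331 FPKM as a gene but 265 by summed transcripts. AT1G07400, just above the class median, had 520 against 0.143 FPKM, and HSP17.4 331 against 2409. The 77.1% and the class median thus hold for gene values only.

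**Figure D3:**
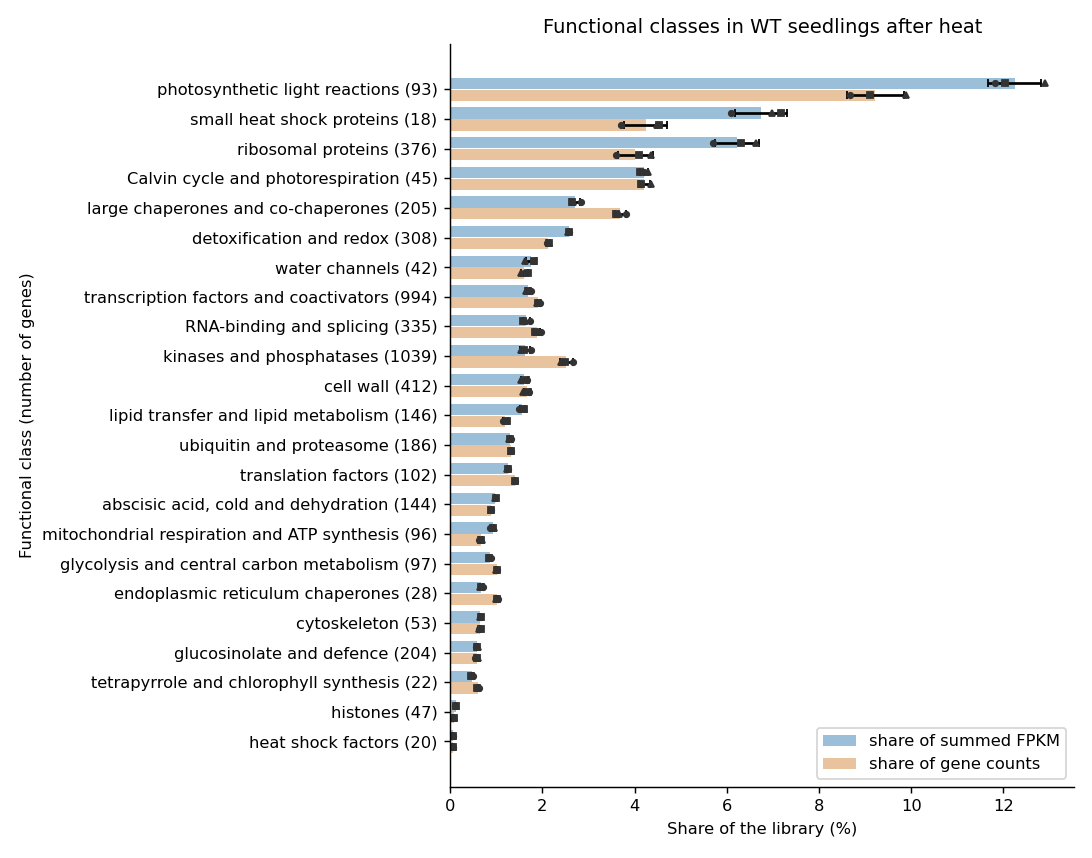
Share of summed FPKM and of gene counts (x axis, %) for 23 functional classes (y axis, number of genes in brackets); bars are means, lines the SD and symbols the 3 WT libraries. The light reactions lead with 12.3% of summed FPKM, and 18 small heat shock genes with 6.75% stand beside 376 ribosomal protein genes with 6.22%.

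The small heat shock proteins spanned 31.6 to 17642 FPKM. After HSP18.2 and ATHSP22.0 came AT2G29500 and AT1G53540, annotated only as HSP20-like chaperones, at 4331 ± 341 and 2689 ± 153 FPKM. HSP17.6II, a cytosolic class II gene, had 1686, 2084 and 2080 FPKM, and its neighbour HSP17.6A 766, 838 and 965 FPKM. The coding sequences of that pair were 86.1% identical, and all values of HSP17.6II lay above those of HSP17.6A. Of the members sent to chloroplasts and mitochondria, HSP21 of chloroplasts had 1583, 1616 and 1235 FPKM, all above HSP17.6A, and HSP23.6-MITO of mitochondria 609, 610 and 659 FPKM, all below it. HSP21 was lowest in replicate 3 and thus did not follow the genes above, which were lowest in replicate 1. The lowest member was AT4G21870, at 31.6 ± 3.72 FPKM. In all, 15 of the 18 were lower in replicate 1 than in the mean of the others. The class took 4.51% of the counts without replicate 1 and 4.12% without replicate 3.

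The promoters of the small heat shock genes, with that of the factor HSFA2, are shown because their heat shock elements differ. The motif was 3 alternating units, GAANNTTCNNGAA or TTCNNGAANNTTC, sought on both strands in the 250 bases before each annotated start. Both orders of the 2-unit form, GAANNTTC and TTCNNGAA, overlap the longer one. The stretches are chr5:24062073-24062322 (plus strand) for HSP18.2, chr1:19980049-19980298 (plus) for AT1G53540, chr3:16984868-16985117 (minus) for HSP17.4, chr4:13819972-13820221 (minus) for HSP21 and chr2:11135374-11135623 (plus) for HSFA2, read 5′ to 3′ from the RefSeq genome TAIR10.1. Capitals mark the 3-unit motif in AT1G53540, HSP17.4 and HSFA2, and the 2-unit form in HSP21.
HSP18.2: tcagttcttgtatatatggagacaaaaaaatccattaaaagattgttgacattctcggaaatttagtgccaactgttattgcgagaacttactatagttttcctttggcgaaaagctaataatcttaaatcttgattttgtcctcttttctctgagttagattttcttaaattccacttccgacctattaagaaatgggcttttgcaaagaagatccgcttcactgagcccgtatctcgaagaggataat
AT1G53540: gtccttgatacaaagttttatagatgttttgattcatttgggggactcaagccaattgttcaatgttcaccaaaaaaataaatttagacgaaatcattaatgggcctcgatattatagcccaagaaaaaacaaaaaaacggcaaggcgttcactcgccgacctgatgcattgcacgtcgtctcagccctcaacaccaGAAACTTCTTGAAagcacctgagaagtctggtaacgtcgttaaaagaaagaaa
HSP17.4: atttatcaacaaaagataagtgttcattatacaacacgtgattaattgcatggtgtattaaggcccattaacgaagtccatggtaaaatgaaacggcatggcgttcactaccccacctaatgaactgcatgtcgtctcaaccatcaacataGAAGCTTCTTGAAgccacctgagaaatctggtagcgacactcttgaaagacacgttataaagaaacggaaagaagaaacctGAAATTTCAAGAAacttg
HSP21: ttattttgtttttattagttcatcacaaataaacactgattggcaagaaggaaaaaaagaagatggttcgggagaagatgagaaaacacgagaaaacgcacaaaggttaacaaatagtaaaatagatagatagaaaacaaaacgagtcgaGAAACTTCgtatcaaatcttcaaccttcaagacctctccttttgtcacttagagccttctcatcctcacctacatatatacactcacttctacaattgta
HSFA2: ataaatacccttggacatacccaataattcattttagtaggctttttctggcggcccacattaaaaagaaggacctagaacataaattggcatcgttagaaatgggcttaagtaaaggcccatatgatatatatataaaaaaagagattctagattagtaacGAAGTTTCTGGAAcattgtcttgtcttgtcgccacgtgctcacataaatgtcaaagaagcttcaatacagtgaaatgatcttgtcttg

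The 3-unit motif was in 2 of the 18 small heat shock promoters, AT1G53540 and HSP17.4, or 11.1%, against 106 of 27443 promoters of protein-coding genes, 0.386%. The coding sequences of AT1G53540 and HSP17.4 were 85.0% identical, so their promoters may not be independent cases. HSP17.4 held it in 2 places, 99 to 87 and 18 to 6 bases before the start, and AT1G53540 once, 53 to 41 bases before it. The 2-unit form was in 7 of 18, 38.9%, against 16.1% of protein-coding promoters. Of the 205 large chaperones, 1 had the 3-unit motif (0.488%) and 31 the 2-unit form (15.1%), near the shares of protein-coding genes. HSP18.2 and ATHSP22.0, the top 2 genes, held neither form in this window. Among the heat shock factors, HSFA2, HSFA7A and AT-HSFA7B had the 3-unit motif, and so did DREB2A among the regulators. Of the top 100 genes 1 had it, which was AT1G53540. These are matches of letters only.

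Heat shock factors were far less abundant than the leading chaperone genes. Of the 20 listed in the gene table, 7 reached 10 FPKM and 1 reached 100 FPKM. These counts are near the shares of all 27218 listed genes, of which 33.4% reached 10 FPKM and 3.50% reached 100 FPKM. The median of the 20 factors was 6.28 FPKM, against 17.1 FPKM for the 205 large chaperones. HSFC1 (AT3G24520) is not listed in the gene table, so no level is given for it. HSF4, a class B factor that RefSeq also lists as HSFB1, led with 193, 194 and 186 FPKM. HSFA2, an inducible factor of long heat exposure, followed at 42.5, 40.8 and 41.1 FPKM and HSFB2A at 38.4, 38.2 and 31.4 FPKM. The 3 values of HSF4 stood above every value of the other factors, while HSFA2 exceeded HSFB2A in all values by a small step. HSFA3 had 20.2 ± 0.604, HSFA7A 16.6 ± 2.03, AT-HSFB2B 12.6 ± 2.46, HSFA1D 11.96 ± 1.49 and RHA1 (AT5G45710), a class A4 factor, 8.27 FPKM. Of the HSFA1 group, regarded as the starting factors of the response, HSFA1D was thus the most abundant, with HSF3 at 7.404 and HSF1 at 4.67 FPKM. HSFA9, a seed factor, had no count in any library.

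All 13 heat regulators reached 10 FPKM and 7 reached 100 FPKM, against 33.4 and 3.50% of all listed genes. The highest was AT5G48570, an FKBP-type isomerase that RefSeq also lists as ROF2, with 1379, 1249 and 1269 FPKM. HSA32, needed to keep acquired thermotolerance, had 389 ± 29.6 and MBF1C, a transcriptional coactivator of heat tolerance, 372 ± 30.8 FPKM. ROF1, a relative of ROF2, had 247 ± 17.7, SR45a 213 ± 11.6, the co-chaperone Hop3 212 ± 14.6 and HSP101 105 ± 10.4 FPKM. SR45a, the splicing protein the series was built on, had 226, 204 and 208 FPKM. BAG6, a co-chaperone regulator, was eighth with 73.5 ± 16.5 FPKM. HSP101 ran from 116 to 96.7 FPKM over the libraries, and without replicate 1 its mean fell under 100 FPKM, which left 6 of 13. In the transcript table HSA32 had 126, 7.35 and 4.36 FPKM, and the HSP101 transcripts AT1G74310.1 and AT1G74310.2 averaged 13.5 and 11.3 FPKM, so the means of both genes lay under 100 FPKM there. DREB2A, at 33.8 ± 7.10 FPKM, and BZIP60, at 23.51 ± 3.78 FPKM, were the lowest of the 13.

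**Figure D4:**
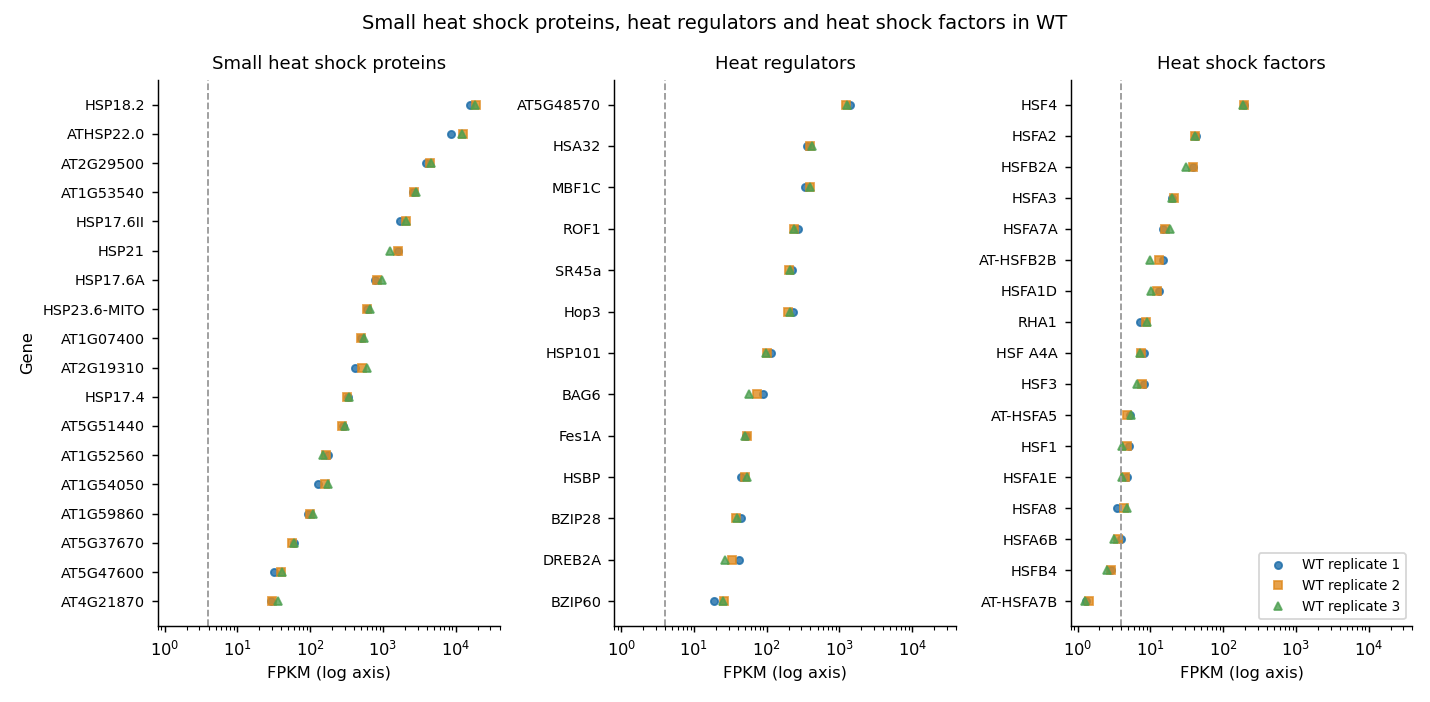
FPKM (x axis, log) of the small heat shock proteins, heat regulators and heat shock factors (y axis, in order of mean) in the 3 WT libraries; the dashed line is the median of all listed genes, 3.99 FPKM. HSFA6A, HSFA9 and HSFB3, each with a value of 0 in a library, are not drawn. The small heat shock proteins reach 17642 FPKM and the heat shock factors no more than 191 on average.

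The larger chaperones were led by AT5G48570, by HSC70-1, a constitutive HSP70 at 1237 ± 65.8 FPKM, and by AT5G58110, annotated as an activator of a chaperone ATPase, at 996 ± 148 FPKM. Within this class, the 16 genes of the HSP70 group held 0.633 ± 0.0499% of summed FPKM. The 23 of the HSP60 and CPN group held 0.658 ± 0.0184% and the 10 of the HSP90 group 0.187 ± 0.0298%. These groups leave out genes of the endoplasmic reticulum class, among them BIP1, BIP2 (571 FPKM) and SHD. The HSP90 group also lacks CR88 (553 FPKM), annotated like SHD as an htpG chaperone, and takes in AT5G50780, annotated as an HSP90-like ATPase. The groups are thus not whole families, and their shares do not rank the families. HSP70 (AT3G12580) had 950, 826 and 767 FPKM, and HSP90.1, the heat-inducible cytosolic HSP90, 870, 724 and 664 FPKM. In both genes replicate 1 was the highest, the reverse of HSP18.2. The chloroplast chaperonins CPN20, Cpn60beta2 and CPN60A had 969 ± 118, 889 ± 36.4 and 847 ± 51.2 FPKM. Among 127 J-domain proteins, partners of HSP70, J3 led with 380 ± 24.7 FPKM. Of the 127, 5 reached 100 FPKM, near the 3.50% of all listed genes. In the endoplasmic reticulum, CNX1, a lectin chaperone, had 793 ± 12.1, BIP1, its HSP70, 663 ± 35.8 and SHD, its HSP90, 618 ± 24.5 FPKM.

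In the photosynthetic light reactions, 17 light-harvesting genes held 6.20 ± 0.289% of summed FPKM, 15 photosystem II subunit genes 2.72 ± 0.201% and 14 photosystem I subunit genes 1.72 ± 0.0585%. LHCA1 and LHCA4, antenna proteins of photosystem I, had 4885 ± 346 and 3756 ± 337 FPKM. LHCB5, LHCB3 and LHCB4.1 of photosystem II had 3165 ± 137, 2483 ± 128 and 2055 ± 40.2 FPKM. The oxygen-evolving proteins PSBP-1 and PSBO1 had 2443 ± 68.2 and 1997 ± 52.1, and DRT112, a plastocyanin, 2140 ± 202 FPKM. PSAL and PSAF led photosystem I with 2052 ± 54.2 and 1818 ± 48.6 FPKM. Also among the first 30 were LHCA2 at 2439 ± 96.8, LHCA3 at 2218 ± 150, CAB2 at 1985 ± 170 and PSBW, a photosystem II subunit, at 1936 ± 172 FPKM. In the Calvin cycle RBCS3B followed RBCS1A at 3761 ± 190 FPKM, and RCA stood at 2710 ± 19.0 FPKM. CRD1, an enzyme of chlorophyll synthesis, had 1293 ± 41.3, PORB 318 ± 18.4 and GUN5, a magnesium chelatase subunit, 310 ± 30.8 FPKM.

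Members of the antenna and Rubisco families are nearly alike, so reads may be shared between them. The coding sequences of CAB1 and CAB3 were 96.4% identical and those of RBCS2B and RBCS3B 94.3%. RBCS1A shared 87.7% with RBCS3B. How reads with several matches were counted is not given in the sources used here, and the split within these families is uncertain.

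Water channels held 1.75 ± 0.107% of summed FPKM, led by the tonoplast proteins TIP2 and GAMMA-TIP at 2165 ± 94.6 and 1799 ± 78.3 FPKM and by PIP2A of the plasma membrane at 1403 ± 122 FPKM. The detoxification and redox genes held 2.57 ± 0.0126%; their first members were FSD1, an iron superoxide dismutase, at 1410 ± 125, the metallothionein MT2B at 1051 ± 13.4 and the glutathione transferase GSTU19 at 808 ± 60.01 FPKM. APX2, a cytosolic ascorbate peroxidase known from heat and strong light, had 467, 461 and 419 FPKM. GolS1, a galactinol synthase, had 366, 346 and 320 FPKM. Both were lowest in replicate 3.

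Lipid transfer and lipid metabolism was led by LP1 at 2348 ± 404, AT2G45180 at 1605 ± 255 and LTP2 at 718 ± 43.2 FPKM. In the cell wall class the extensin EXT3 had 945 ± 176, the xyloglucan enzyme XTH7 674 ± 114 and AGP15 650 ± 50.9 FPKM. EXT3 was highest in replicate 1 and XTH7 in replicate 3. Ribosomal proteins after SSR16 were AT5G02960 at 567 ± 71.2 and emb2171 at 467 ± 87.3 FPKM, and translation factors were led by FBR12, an eIF5A, at 881 ± 58.9, eEF-1Bb1 at 659 ± 68.1 and AT5G60390 at 607 ± 10.7 FPKM. UBQ10, a polyubiquitin, had 624 ± 47.6, and the ubiquitin-conjugating enzymes UBC10 and UBC28 had 409 ± 11.4 and 326 ± 46.6 FPKM. In glycolysis the enolase LOS2 had 703 ± 37.5, GAPC1 557 ± 19.98 and GAPC2 426 ± 21.9 FPKM.

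Genes named for abscisic acid, cold and dehydration took 0.974 ± 0.00950% of summed FPKM, with DI19 at 666 ± 78.1, KIN2 at 622 ± 70.9 and the protease gene RD21A at 599 ± 26.9 FPKM. The ADP/ATP carrier AAC1 led mitochondrial respiration at 570 ± 12.3, before AT1G51650 at 454 ± 114 and AT4G37830 at 277 ± 22.9 FPKM. PFN2, a profilin, led the cytoskeleton at 454 ± 56.0, then TUA6 at 369 ± 13.4 and ACT7 at 336 ± 18.24 FPKM. The defence class was led by the glucosidase PYK10 at 479 ± 53.1, MLP34 at 390 ± 58.4 and MLP328 at 377 ± 57.5 FPKM. Histones were low, with HTB4 at 112 ± 8.07, HTA9 at 81.3 ± 15.44 and AT4G40040 at 62.7 ± 1.97 FPKM. Kinases and phosphatases, 1039 genes, had 4 at or above 100 FPKM (0.385%, against 3.50% of all listed genes). Among these were CIPK7 at 205 ± 16.8, TOPP1 at 168 ± 4.97 and CIPK12 at 126 ± 13.9 FPKM.

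RNA-binding and splicing proteins held 1.65 ± 0.0744% of summed FPKM. GRP7, a glycine-rich RNA-binding protein, had 1364 ± 130, RBP31 328 ± 7.58 and LARP6b 324 ± 34.0 FPKM. SR30, a serine/arginine-rich splicing factor, stood at 206 ± 4.89 FPKM, close to SR45a. Among 994 transcription factors and coactivators 12 reached 100 FPKM (1.21%), against 3.50% of all listed genes. EBP, an ethylene response factor, was first with 430, 438 and 433 FPKM, and COL3, a CONSTANS-like factor, second with 276, 432 and 507 FPKM. EBP was nearly the same in all 3 libraries, and COL3 was far lower in replicate 1. All 3 MBF1 coactivator genes were among the first 5: MBF1C at 372 ± 30.8, MBF1A at 361 ± 17.3 and MBF1B at 280 ± 20.4 FPKM. AT4G15545, HB6 and COL4 followed at 146 ± 6.82, 117 ± 5.64 and 115 ± 4.77 FPKM.

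Intronless genes were frequent in the first 30 genes only. Gene models without an intron made up 9 of the first 30 genes, 18 of the first 100 and 34 of the 298 of the first 300 with a gene model (11.4%), against 2304 of the 17575 nuclear genes of at least 1 FPKM (13.1%). Of the 18 small heat shock genes 11 had none, HSP18.2 and ATHSP22.0 included, against 21 of 93 in the light reactions and 31 of 376 ribosomal protein genes.

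The transcript table gave the same leading pair but another picture below it. HSP18.2 had 14014 ± 2513 and ATHSP22.0 11029 ± 2144 FPKM as transcripts. Next came LHB1B2 (AT2G34420, chr2:14522524-14523568, minus strand), a light-harvesting gene with 8924, 6596 and 9064 FPKM that is not listed in the gene table. All of its exonic bases (100%) are shared with other genes. The same holds for AT2G08665, also not listed in the gene table, which had 994, 3179 and 1805 FPKM. The main RBCS1A transcript, AT1G67090.1, followed at 6235 ± 2412 FPKM. Its 8868 FPKM in replicate 3 exceeded the 8591 FPKM of ATHSP22.0 in replicate 1. LHCA1, PSBR, GASA1, LHCA4, RBCS3B and AT1G53540 completed the first 10 with 3867 ± 316 to 2694 ± 122 FPKM. Whether strand was used in counting is not given in the sources used here, so reads of a gene and any antisense partner cannot be told apart.

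Some genes that share exonic bases with another gene had low gene-level values. HSP17.4 (chr3:16984118-16984867, minus strand), with 70.9% of its exonic bases shared with other genes, had 328, 325 and 340 FPKM in the gene table and 2334, 2410 and 2484 in the transcript table. PSAG, a photosystem I subunit gene with 61.4% shared, had 364 against 1977 FPKM, and AT1G51400, with 77.5% shared, 0.382 against 406 FPKM. These genes would thus rank far higher by transcripts, HSP17.4 at place 14. PSAE-1, with 34.1% shared, had 436 against 1380 FPKM. A large share was not always present, since AT1G07590, with 5.73% shared, had 618 against 1864 FPKM. Over genes of at least 50 counts, the median ratio of summed transcript estimate to gene count was 3.76 in 11337 genes with no shared exon and 3.40 in the 4415 that share up to 25% of their exonic bases. It was 4.01 in the 554 genes that share over 25 to 50%, 5.84 in the 116 that share over 50 to 75% and 3.91 in the 27 that share more, so it did not rise steadily with the share. Of 1210 loci with a transcript but no row in the gene table, 1005 shared exonic bases with another gene (83.1%), against 30.9% of the genes of at least 1 FPKM.

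The reverse also occurred. Of 251 nuclear genes of at least 300 FPKM in the gene table, 227 had summed transcript FPKM within 3-fold, 4 were over 3-fold higher and 20 were over 3-fold lower or, for AT1G06283 and AT1G73885, had no transcript value used here. AT2G29500 had 794, 0.217 and 0.559 FPKM in the transcript table, against 4331 as a gene. CAB1 had 291 against 6145, DI19 0.562 against 666 and the small heat shock gene AT1G07400 0.143 against 520 FPKM. Other genes given above by their gene values were also lower there, KIN2 at 17.0, UBQ10 at 63.7, GRP7 at 355, HSC70-1 at 395 and CAB3 at 1433 FPKM. Of these genes CAB1 shared 8.78% of its exonic bases with another gene and the others none. The 21725 transcripts without a gene identifier held 16.6 ± 1.09% of the transcript estimates and 12.2 ± 0.586% of their FPKM, and 6 of them were among the 100 of highest mean FPKM. Whether they carry the RNA missing from these genes was not tested.

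**Figure D5:**
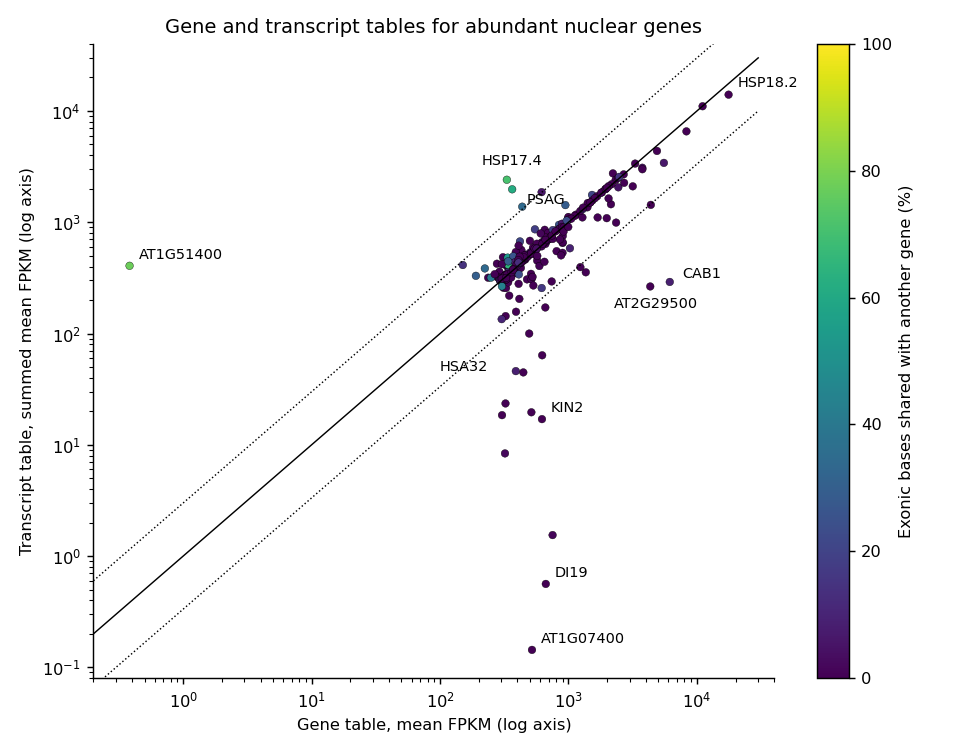
Summed transcript FPKM (y axis, log) against gene FPKM (x axis, log) for nuclear genes at or above 300 FPKM in either table, coloured by the share of exonic bases that overlap another gene; the solid line is equality and the dotted lines are 3-fold. HSP17.4 and PSAG lie above the band, and AT1G07400, DI19, AT2G29500 and CAB1 far below it; loci listed in 1 table only are not drawn.

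Of the genes of at least 10 FPKM, 4866 had 1 annotated transcript and 4174 had 2 or more. In these 4174 genes the leading transcript held a median of 85.6 ± 0.181% of the gene's estimate. It held at least 90% in 43.3 ± 0.270% of the genes and under 50% in 7.85 ± 0.298%. Transcripts without a gene identifier were left out of these shares. The same transcript led in all 3 libraries in 3121 of the genes (74.8%). The split was less steady in single genes: the HSFA2 transcript AT2G26150.1 held 18.19, 24.1 and 68.9% of the estimate, and AT5G05410.1 held 59.1, 93.01 and 60.3% of that of DREB2A. MBF1C was all AT3G24500.1. For HSFA2 and DREB2A the libraries did not settle which transcript led by how much.

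The SD over the mean had a median of 7.30% in the top 100 genes, whose high counts leave a median counting error of 0.537%. Replicate 1 was the lowest library in 66 of these 100 genes and replicate 3 the highest in 65. The largest spreads were in SSR16 with 613, 951 and 1063 FPKM, CP12-1, a Calvin cycle regulator, with 976, 1192 and 1538, and AT4G23670 with 559, 661 and 864 FPKM. The cytochrome b6f subunit gene AT2G26500 had 677, 956 and 1064 and PSAK 1078, 1507 and 1685 FPKM. All 5 were lowest in replicate 1 and highest in replicate 3, the order that short genes followed as a group.

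By the median of each marker set, the mesophyll set was the highest and the seed and flower sets the lowest, an order that depends on the markers chosen. The mesophyll median was the gene value of CAB1, which had 291 FPKM in the transcript table. Of the mesophyll markers RBCS1A and CAB1 led, and CA1, carbonic anhydrase, was the lowest at 302 ± 20.1 FPKM. Of 7 root markers 4 reached 10 FPKM, against 33.4% of all listed genes. PHT1;1, a phosphate transporter, had 72.5 ± 2.51 and EXPA7, an expansin of root hairs, 36.4 ± 1.48 FPKM, while IRT1 had 0.0881 ± 0.0585 FPKM. Epidermis markers ran from 19.7 FPKM for ATML1 to 74.4 for PDF1 and 106 for KCS10. Guard cells had KAT1 at 20.4, MYB60 at 9.65 and FMA at 2.65 FPKM, phloem PP2-A1 at 28.2, SUC2 at 11.8 and APL at 9.08 FPKM. Xylem and shoot meristem were lower, with XCP1 at 9.90, IRX3 at 2.56 and VND7 at 0.156, and KNAT1 at 11.4, STM at 2.34 and WUS at 0.0612 FPKM. Of 6 flower markers 1, SEP3, reached 1 FPKM, with 5.11 ± 1.72, PI was next at 0.235 and AP1 had no count. Of all listed genes 65.1% reached 1 FPKM. The pollen marker TUA1 had 12.6 ± 1.12 FPKM, above the phloem median of 11.8, and the pollen marker VGD1 is not listed in the gene table. The seed markers stayed under 1 FPKM, with CRA1 at 0.288 ± 0.0532, CRU3 at 0.0426 and SESA1 with no count. In a bulk library, fewer cells of a type and less RNA per cell cannot be told apart.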

How the data were processed

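Per the labels' protocols, total RNA was extracted with Trizol, sequenced as 150-bp paired reads on a NovaSeq and filtered with fastp. Aligner, counting program, strand setting and genome build are not given in the sources used here. The deposited gene tables hold whole-number counts and FPKM, and the deposited transcript tables hold estimated counts and FPKM made by the authors. In each library those estimates came to 3.86 ± 0.0171 times the total of the deposited gene counts, so they were used for shares and ratios. Of 26968 loci, 26961 had the start and end of TAIR10.1.

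Columns were mapped to samples by title. Shares, ranks and SD were computed with pandas 2.3.3 in Python 3.11.15, TMM factors with edgeR 4.0.16 and size factors with DESeq2 1.42.0. No test was run, since 1 group was described. Functional classes came from rules on symbols and descriptions, first match only. The rules were corrected after the class members were seen. The members, lists and markers were chosen with earlier results of these data known. Genes were named by rule: SR45a, the 30 of highest mean FPKM, 3 per class, the 8 highest heat shock factors, regulators and transcription factors, 5 of largest spread, 10 transcripts and the highest and lowest tissue markers; APX2, GolS1, SR30 and the chaperone and overlap examples were added after their values were seen. Promoters are the 250 bases before the RefSeq start. Motif, overlap and class code was tested on simulated data. The 95% Wilson interval of the small heat shock and light reaction shares reached at most 0.0125 percentage points to either side in any library and covers counting error only. Alternatives were FPKM shares, filters, other scalings and leaving out each library.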

Additional observations from a re-analysis of the deposited data

How the results depend on the processing

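No paired analysis was possible because 1 group was described and no test was run. With log2 means, TPM, TMM or DESeq2 scaling all 100 of the top 100 genes were the same. These settings keep the order of genes within each library, so they could hardly change the set. With the median 98 were the same and with counts not per length 74. With summed transcript FPKM, an alternative chosen after seeing the data, 87 were the same. Shares of summed FPKM moved beyond the spread. The top 10, 100 and 1000 genes, here by FPKM in each library, held 10.99, 28.8 and 57.7%. The light reactions held 12.3%, small heat shock proteins 6.75%, ribosomal proteins 6.22%, large chaperones 2.71% and transcripts without a gene identifier 12.2%. Also chosen after seeing the data, the class rules as first written gave 3.47% for large chaperones, and transcript estimates gave 4.55% for ribosomal proteins. The leading transcript held 82.4% over genes of at least 1 FPKM. Intronless genes were 30.0% of the top 30 and 11.4% of the top 300. The 2-unit motif was in 7 small heat shock promoters and 22 of the top 100. The cause of these moves was not tested, beyond the change in what was counted.

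Leaving out 1 library gave 7.63 to 8.27% for the 10 genes of highest count and 4.09 to 4.51% for small heat shock proteins. It gave 17673 to 17732 detected genes and a median spread of 4.94 to 8.50%. Among the smaller classes, 43 of 83 shares under other settings stayed within the spread, the SD over the 3 libraries. With 1 library left out 54 of 54 did. Leaving out 1 of 3 values cannot move their mean by a whole SD, so that count shows nothing about stability. Without replicate 1, 6 of 13 regulators reached 100 FPKM in place of 7. Genes whose gene and transcript values differ over 3-fold, most of the lower ones without shared exons, and near-identical family members are uncertain, and 3 libraries limit every SD.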
